A study of Arabidopsis thaliana with 24 samples.

Results

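The chloroplast-encoded genes of Arabidopsis thaliana were taken as all rows of the deposited expression table whose gene identifier begins with ATCG, the locus prefix of the plastid genome. There were 134 such rows among 38088 in the table, and 66 of them passed the filter for testing, a level of at least 1 FPKM (fragments per kilobase of transcript, scaled to library size) in at least 3 of 24 libraries. The table compared seedlings of the mutant dcp5-1 with seedlings of the wild type Col-0. Seedlings of both genotypes were 5 days old, were rested in liquid MS medium for 30 min and were then moved to medium with 150 mM NaCl for 15 min (T15) or 0 min (T0). Total RNA was sequenced from each lysate, and polysomal RNA from its polysomes, which had been separated on sucrose (10% to 50%) and mixed. The 8 groups were dcp5-1 T15 polysomal, dcp5-1 T15 total, dcp5-1 T0 polysomal, dcp5-1 T0 total, Col-0 T15 polysomal, Col-0 T15 total, Col-0 T0 polysomal and Col-0 T0 total, with 3 libraries each. No group spent 15 min without NaCl, so the effects of NaCl and of the elapsed time or handling cannot be told apart. No label states that the 3 libraries of a group came from separate cultures, so the p-values measure the spread between these libraries, which may be technical.

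Chloroplasts keep a small genome of bacterial origin, which codes for core subunits of the photosystems, the cytochrome b6f complex, the ATP synthase, the NADH dehydrogenase-like (NDH) complex and Rubisco, and for part of the plastid's own transcription and translation machinery. These genes are transcribed in multi-gene units by a plastid-encoded and a nuclear-encoded RNA polymerase, and their messages are translated inside the organelle on bacterial-type ribosomes. In contrast to cytosolic mRNAs, mature chloroplast mRNAs carry no stable poly(A) tail, and added A-rich tails mark plastid RNA for decay. DCP5, the protein lacking or reduced in dcp5-1, is a component of cytosolic mRNA decapping complexes and processing bodies.

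The table gave identifiers without gene names. The reference annotation described 7 of the tested identifiers, and the other names follow the standard numbering of the chloroplast loci, so identifiers are given beside the names. As a check, the smallest values of 42 identifiers were compared with the steps that whole fragments would give at the RefSeq length of the named gene. For 35 of the 42 the values lay near whole fragments, against 5.18% of pairings with the lengths of other chloroplast genes. Among the 66 tested identifiers, 7 names rested on a reference description and 18 on this agreement of steps with length, 7 had steps that fitted poorly, and 34 rested on the numbering alone. The identifier ATCG00430, called ndhK here, was described in the reference by an older name, photosystem II protein G.

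Markers of green tissue and of roots were above 0 in all 24 libraries, as in whole seedlings. The green-tissue gene LHCB1.3, which codes for a light-harvesting protein, lay between 4440 and 23325 FPKM. The root gene PYK10, which codes for a beta-glucosidase, lay between 1513 and 3916 FPKM. Of the other root markers, TIP2;3 lay between 47 and 112 FPKM and EXPA18 only between 0.77 and 4.74 FPKM. DCP5 itself lay between 13 and 21.5 FPKM in the 12 dcp5-1 libraries, against 48.5 to 92.3 FPKM in the 12 Col-0 libraries, with no overlap. The implied size of the libraries, read from the steps of the lowest values, lay between 14630000 and 20350000 fragments. In these libraries chloroplast rows held very few fragments. Their mean share was 0.0352% ± 0.00218 in dcp5-1 T15 polysomal libraries, 0.0629% ± 0.00276 in dcp5-1 T15 total, 0.0346% ± 0.00102 in dcp5-1 T0 polysomal, 0.072% ± 0.00533 in dcp5-1 T0 total, 0.0445% ± 0.00251 in Col-0 T15 polysomal, 0.0928% ± 0.00235 in Col-0 T15 total, 0.0375% ± 0.000991 in Col-0 T0 polysomal and 0.102% ± 0.0131 in Col-0 T0 total (SD, n = 3 each). The share was lower in polysomal than in total RNA of every genotype and time, and lower in dcp5-1 than in Col-0 total RNA at both times, with no overlap between the libraries. By genotype, the green-tissue gene RBCS3B, which codes for the Rubisco small subunit, lay between 7921 and 12103 FPKM in dcp5-1, against 9282 to 17947 FPKM in Col-0, and PYK10 between 2130 and 3916 FPKM in dcp5-1, against 1513 to 2517 FPKM in Col-0. The other root markers did not follow PYK10. In dcp5-1 TIP2;3 lay between 52.3 and 64.4 FPKM, against 47 to 112 FPKM in Col-0. EXPA18 lay between 0.854 and 4.67 FPKM in dcp5-1, against 0.77 to 4.74 FPKM in Col-0. All 4 green-tissue markers had a lower maximum in dcp5-1 than in Col-0, with overlapping ranges, and their part in the share was not tested. In whole seedlings, fewer green cells or chloroplasts and less chloroplast RNA per cell cannot be told apart.

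Which rows were detected differed between the classes of genes, which also differ in transcript length. No fragment was listed in any of the 24 libraries for 38 of the 134 rows, which comprised 33 of the 37 transfer RNA genes, both 4.5S ribosomal RNA genes, psbF (ATCG00570, a cytochrome b559 subunit of photosystem II), petL (ATCG00590, a small cytochrome b6f subunit) and 1 row with no name. All rows at 0 with a known length were 120 nt or shorter, and the parts of class and length were not tested. A further 30 rows were above 0 in some library but did not pass the filter. They included 3 of the 4 RNA polymerase genes: rpoB (ATCG00190), rpoC1 (ATCG00180) and rpoC2 (ATCG00170), the large subunits of the plastid-encoded polymerase. Of these rpoB reached 61.1 fragments in 1 library, yet its highest level was 1.04 FPKM, because the gene is long. The maturase gene matK (ATCG00040), the fatty acid synthesis gene accD (ATCG00500) and both copies of ycf2 (ATCG00860 and ATCG01280) also stayed at or below 1.04 FPKM in every library.

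FPKM was a poor guide to detection for very short transcripts. For long transcripts the values fitted a division by the transcript length minus 266.4 nt. For short ones the effective length used was above that difference but small. It was 51.49 nt for the ribosomal protein gene rps19 (ATCG00820), of 279 nt, and 1.295e-05 nt for ATCG00010, of 73 nt. A single fragment of a transcript near or below 266.4 nt could thus give an extreme value. The transfer RNA gene trnH (ATCG00010) was listed at up to 7927590 FPKM from at most 1.71 fragment equivalents, which is the FPKM converted back to fragments. Likewise petN (ATCG00210), which codes for a small cytochrome b6f subunit, was listed at 459224 FPKM in 1 library and at 0 in the other 23. Of the 66 tested rows, 23 had a median of fewer than 10 fragment equivalents over the 24 libraries, and 43 had at least 10. The 43 with at least 10 consisted of 5 of the 15 photosystem II genes, 2 of 5 photosystem I genes, 1 of 6 cytochrome b6f genes, 4 of 6 ATP synthase genes, 6 of 12 NDH genes, rbcL, 15 of 26 ribosomal protein genes, 1 of 4 RNA polymerase genes, 4 of 8 ribosomal RNA genes and 4 of the 13 other genes. Levels and changes below are given for these 43 genes unless stated otherwise, and genes with fewer fragments are marked as such.

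**Figure D1:**
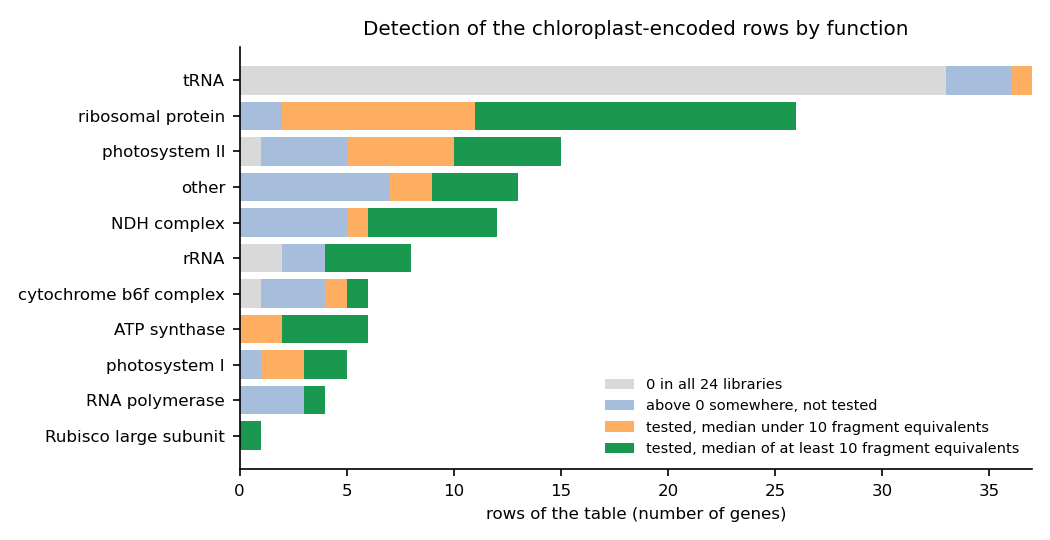
Number of rows of the table in each function class, stacked by detection: 0 in all 24 libraries, above 0 but not tested, tested with a median under 10 fragment equivalents, and tested with at least 10. Of the 37 transfer RNA rows 33 were at 0 throughout, whereas 15 of the 26 ribosomal protein rows were tested with at least 10 fragment equivalents.

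Fragments were concentrated in a few genes. The gene ycf1 (ATCG01130), which codes for a large subunit of the protein import machinery of the inner envelope, held 35.3% of all chloroplast fragments, and the copies of rpl2 (ATCG01310 and ATCG00830), which codes for a protein of the large ribosomal subunit, held 11.8% and 11.6%. A further 7.74% fell in rps3 (ATCG00800), which codes for a protein of the small subunit, and 4.47% in atpB (ATCG00480), which codes for the beta subunit of the ATP synthase. The copies of a gene in the inverted repeat are near-identical, and how their reads were split is not known, so each value of such a copy is uncertain. The 11 genes from rpl23 (ATCG00840) to rpoA (ATCG00740) lie next to each other on the minus strand of the plastid genome, at positions 77901 to 86143 of the RefSeq reference (TAIR10.1), and held 30.1% of the chloroplast fragments. All but rpoA, which codes for the alpha subunit of the polymerase, encode ribosomal proteins. The genes rps3 and rpl22 overlap by 16 nt, and reads there belong to both.

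Per length, ribosomal protein genes stood above photosynthesis genes in these libraries. The levels are those recovered by mRNA-seq, in which chloroplast rows held very few fragments. Whether they follow the abundance of transcripts in the chloroplast was not tested. Among tested genes with at least 250 nt, the mean level in Col-0 T0 total RNA was highest for rps19 (ATCG00820), at 346.8 ± 48.8 FPKM, and next for rps3, at 229.3 ± 30.5 FPKM (SD, n = 3). The lowest rps19 library, at 290.6 FPKM, exceeded the highest rps3 library, at 259.4 FPKM. However, rps19, of 279 nt, and the rps12 rows, of 258 nt, are near the length at which FPKM is a poor guide. Their ranks are therefore uncertain. In fragment equivalents, rps19 averaged 283.7 in these libraries, against 1419 for rps3, of 657 nt. The following genes, rps12 (ATCG00905 and ATCG01230), rpl16 (ATCG00790), rpl22 (ATCG00810), rpl14 (ATCG00780) and rpl2, averaged between 118.1 and 164.8 FPKM and overlapped their neighbours in this order. Next came atpE (ATCG00470, the epsilon subunit of the ATP synthase) at 101.1 ± 27.6 FPKM and ycf1 at 91.4 ± 12.1 FPKM, which also overlapped. In contrast, psbA (ATCG00020), which codes for the D1 reaction centre protein of photosystem II, averaged 1.96 FPKM, and rbcL (ATCG00490), which codes for the large subunit of Rubisco, 6.27 FPKM.

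Several of the genes with the highest levels in these libraries were rich in A. Base content was counted from gene start to gene end, introns included. For rpl16 this span runs from 81189 to 82652, of which only 408 nt are exon. The coding strand was 39.7% A over rps3, 40.2% over ycf1, 41.1% over rpl16 and 38.7% over rps19 and rpl22, against 23.4% over psbA and 22.0% over psbD (ATCG00270, the D2 protein of photosystem II). The 10 genes from rpl23 to rpoA with at least 250 nt ranged from 31.4% to 41.1% A, and the other 41 gene rows from 22.0% to 40.4%, with a median of 30.2%. Not all genes follow this order. Both rpl2, at 33.7% A, and atpE, at 33.8%, had high levels. In contrast, rps18 (ATCG00650), at 36.6% A, averaged 5.62 FPKM in Col-0 T0 total RNA, and rpl20 (ATCG00660), at 36.2%, 2.21 FPKM. Both rps18 and rpl20 rest on few fragments. Across 45 of these rows, without second repeat copies, Spearman's rho of A content with the mean level in Col-0 T0 total RNA was 0.52, and that of GC content was -0.23. The genes share libraries, depth and base composition, and no p is given. Shorter genes also had higher levels, with a rho of -0.41 for exon length. To show this difference in sequence, the 60-nt stretch with the most A in each of 7 genes is printed 5′ to 3′ on the coding strand, from the RefSeq plastid sequence, with runs of at least 4 A in capitals. The stretch holds 35 A in rps3, 31 in rpl22, 33 in rps19 and 42 in ycf1, against 27 in psbA, 26 in rbcL and 22 in the 16S ribosomal RNA gene rrn16S (ATCG00920).
rps3 (plastid:83326-83385, minus strand): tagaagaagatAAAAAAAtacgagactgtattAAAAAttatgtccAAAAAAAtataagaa
rpl22 (plastid:83520-83579, minus strand): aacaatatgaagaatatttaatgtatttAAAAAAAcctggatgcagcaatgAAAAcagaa
rps19 (plastid:84190-84249, minus strand): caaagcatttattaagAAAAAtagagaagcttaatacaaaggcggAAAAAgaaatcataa
ycf1 (plastid:124277-124336, minus strand): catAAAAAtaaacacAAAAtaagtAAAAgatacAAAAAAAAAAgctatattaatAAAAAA
psbA (plastid:713-772, minus strand): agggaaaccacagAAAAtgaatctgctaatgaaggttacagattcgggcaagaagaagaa
rbcL (plastid:55429-55488, plus strand): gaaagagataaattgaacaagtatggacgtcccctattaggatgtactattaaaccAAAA
rrn16S (plastid:101668-101727, plus strand): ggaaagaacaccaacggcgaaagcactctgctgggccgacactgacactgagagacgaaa

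**Figure D2:**
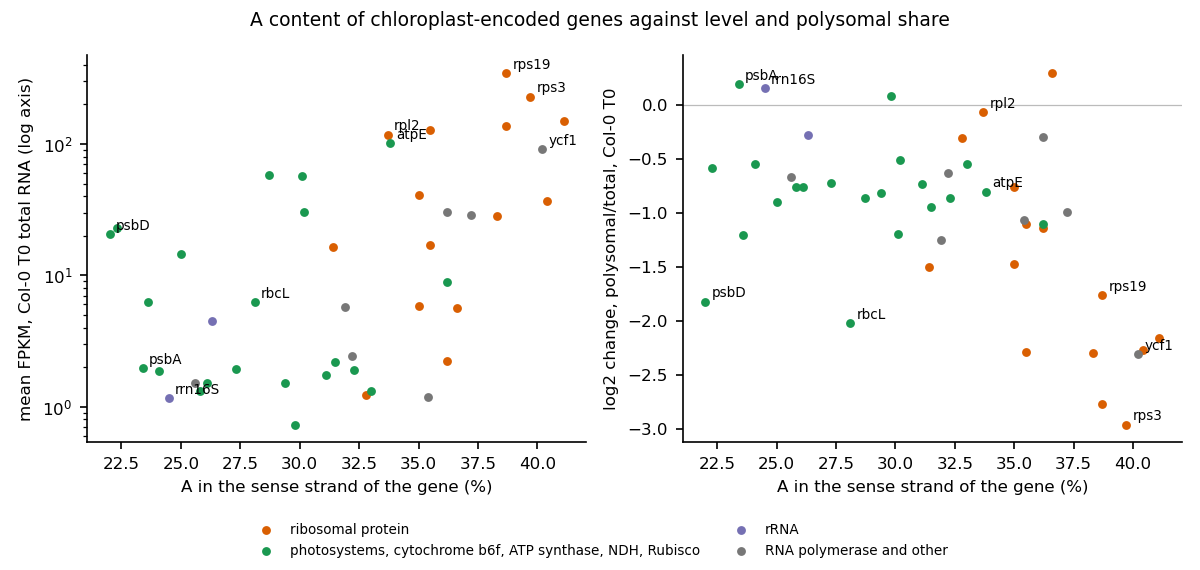
Each point is 1 of 45 chloroplast-encoded genes with at least 250 nt, placed by the percentage of A in its coding strand (x axis) and by its mean FPKM in Col-0 T0 total RNA on a log axis (left) or by the log2 change of polysomal against total RNA in Col-0 T0 (right), coloured by function. Introns are included in the percentage of A. Genes rich in A tended to have higher levels (rho 0.52) and lower polysomal than total values (rho -0.47).

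The first comparison set the level of each chloroplast transcript in polysomal RNA against that in total RNA. FPKM is scaled within each library, so these are relative levels and not the fraction of a transcript on polysomes. In Col-0 at T0, 1 chloroplast gene was higher and 39 were lower in polysomal than in total RNA of 66 tested (limma, adjusted p below 0.05). Over all 20964 genes tested, 71.3% were called, 35.3% higher and 36% lower, so the 39 of 66 lower chloroplast genes exceeded that background share. These 39 include genes such as psaA (ATCG00350) and psaB (ATCG00340), which passed the filter only through total RNA. The filter favours such genes, and the excess was not recounted without them. When FPKM was rescaled so that all nuclear genes had the same sum in each library, 1 was higher and 18 were lower, and with nuclear genes of at least 300 nt 2 and 35. The median log2 change over all genes was then 0.37 and 0.12. Without rescaling, the median log2 change was -0.76 over the chloroplast genes and -0.02 over all genes. Lower in polysomal RNA were 3 of 10 photosystem II genes, 2 of 4 photosystem I genes, 5 of 6 ATP synthase genes, 5 of 7 NDH genes, 14 of 24 ribosomal protein genes, rpoA, rbcL and all 6 genes of other function. Nuclear transcripts of like length set beside these values had a median log2 change of -0.53 from 300 to 600 nt, -0.37 from 600 to 1500 nt and 0.20 from 1500 nt. The part of transcript length in the chloroplast values was not tested.

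In Col-0 at T0 the largest changes between the fractions among the 43 genes were those of rps3 and rpl22, which lie between rpl23 and rpoA. In Col-0 T0 seedlings, rps3 had 33.5, 27 and 25.6 FPKM in polysomal RNA, against 198, 259 and 230.3 FPKM in total RNA, a log2 change of -2.96 ± 0.13 (SE; adjusted p = 1.07e-13). In the polysomal libraries rpl22 had 23.5, 18.7 and 16.4 FPKM, against 113, 155 and 147 FPKM in total RNA, a change of -2.77 ± 0.15 (SE; adjusted p = 4.75e-12). No polysomal library of either gene came near the lowest total library. The changes of rpl14, rpl16, rps19 and rpoA were -2.29, -2.16, -1.76 and -0.99. In contrast, rpl2, transcribed ahead of rps19, did not pass the test: ATCG00830 had 109.7, 114 and 114 FPKM in polysomal RNA, against 102, 127 and 126 FPKM in total RNA, a change of -0.06 ± 0.08. Of the 11 genes of the neighbourhood, 8 were lower at T0 and 10 at T15 in Col-0, and 9 at T0 and 8 at T15 in dcp5-1, with none higher. Over all genes tested, 36% were lower at T0 and 29.8% at T15 in Col-0, and 36.3% and 32.8% in dcp5-1. Among them, rpl2 in dcp5-1 at T0, at -0.35 and -0.37, turned to 0.15 and 0.13 under rescaling to the nuclear sum.

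Outside this neighbourhood, ycf1, itself rich in A, had 16.7, 17.7 and 18 FPKM in Col-0 T0 polysomal RNA, against 78.1, 102 and 94.4 FPKM in total RNA, a change of -2.31 ± 0.07 (SE; adjusted p = 4.46e-17). The small-subunit genes rps7 (ATCG00900 and ATCG01240) and rps12 were also lower, at -1.47 and -1.38 for rps7 and -1.33 and -1.35 for rps12, and rps15 (ATCG01120), at -2.27, rests on few fragments. The 4 ribosomal RNA rows behaved otherwise. At T0 in Col-0 the 23S row rrn23S (ATCG00950) was lower, at -0.27, a direction that turned to 0.14 under rescaling to the nuclear sum, the 16S row ATCG01210 was higher at 0.45, and the other copies did not pass the test. At T15 in Col-0 all 4 were higher in polysomal RNA, by 0.33 to 0.51, but the 2 copies of rrn23S turned to -0.12 and -0.07 under that rescaling. No ribosomal RNA row of this group of 4 exceeded 4.95 FPKM in any library, and the labels do not say how mRNA was selected before sequencing.

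Photosynthesis genes spanned the whole range. The largest deficits were those of rbcL, which had 0.674, 0.674 and 0.899 FPKM in Col-0 T0 polysomal RNA, against 5.6, 4.71 and 8.5 FPKM in total RNA, a change of -2.02 ± 0.22 (SE; adjusted p = 5.77e-08), and of psbD, which had 4.75, 5.47 and 4.99 FPKM in polysomal RNA, against 21.4, 23.1 and 17 FPKM in total RNA, a change of -1.82 ± 0.15 (SE; adjusted p = 4.10e-10). In both the groups were far apart, but the rbcL polysomal libraries held only 12, 12.1 and 16.4 fragment equivalents. The change was -1.20 for psbC (ATCG00280, the CP43 antenna protein), -0.76 for psaB (ATCG00340) and -0.76 for psaA (ATCG00350), the core proteins of photosystem I, -0.94 for petA (ATCG00540, cytochrome f), -1.19 for ndhK and -0.51 for atpB. At the other end, psbA had 2.08, 3.07 and 2.08 FPKM in polysomal RNA, against 1.61, 2.31 and 1.95 FPKM in total RNA, so that the groups overlapped and the change of 0.20 ± 0.15 did not pass the test. For genes this low the log2 scale with 1 added understates the change. No polysomal library of psaA or psaB exceeded 0.6613 FPKM, so both passed the filter of 1 FPKM only through total RNA. The same held for atpA (ATCG00120) and, from few fragments, ycf4 (ATCG00520), with polysomal maxima of 0.9956 and 0.9443 FPKM. In polysomal RNA petA and rbcL reached 1 FPKM only in Col-0 T15 libraries, petA at 1.03 and 1.06 and rbcL at 1.025. Such a filter favours genes with a polysomal deficit, and the counts of lower genes include them.

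**Figure D3:**
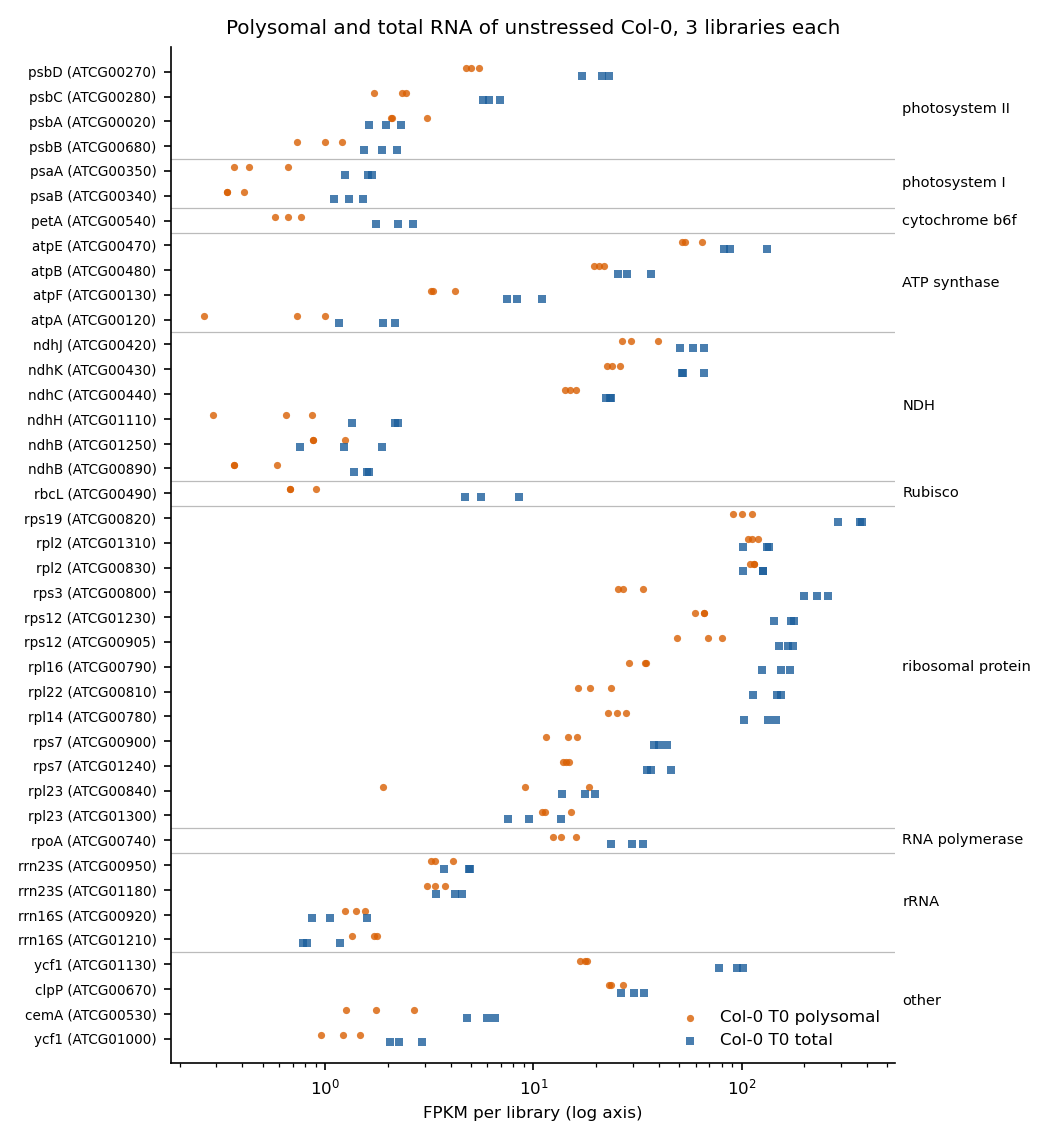
FPKM per library (log axis) in Col-0 T0 polysomal (circles) and total RNA (squares) for 40 chloroplast-encoded genes with a median of at least 10 fragment equivalents, grouped by function. The fractions were far apart for rps3, rpl22, ycf1, rbcL and psbD and overlapped for psbA and rpl2.

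In Col-0 at T15, 8 genes were higher and 35 lower in polysomal RNA (all genes: 61.3% called, 31.6% higher and 29.8% lower), with medians of -0.62 over chloroplast genes and 0.00 over all genes. In dcp5-1, 3 were higher and 43 lower at T0 (all genes: 71.2% called, 34.9% higher and 36.3% lower), and 5 higher and 29 lower at T15 (all genes: 66.4% called, 33.6% higher and 32.8% lower). With rescaling to the nuclear sum, 5 were higher and 16 lower in dcp5-1 at T0, 3 and 15 in dcp5-1 at T15, and 2 and 40 in Col-0 at T15. The medians over chloroplast genes in dcp5-1 were -0.68 at T0 and -0.46 at T15, against -0.04 and -0.01 over all genes. In dcp5-1 at T0 the largest deficit was that of rbcL, with 0.509, 0.456 and 0.579 FPKM in polysomal RNA, against 8.87, 5.57 and 10.4 FPKM in total RNA, a change of -2.58 ± 0.22 (SE; adjusted p = 1.40e-09). These polysomal values rest on only 9.98, 9.01 and 12.2 fragment equivalents. Next came rps3, with 44, 38.5 and 47.5 FPKM in polysomal RNA, against 189.6, 164 and 176 FPKM in total RNA, a change of -2.00 ± 0.13 (SE; adjusted p = 4.40e-11). At T15 rbcL remained the lowest of the called genes, with -1.94 in dcp5-1, and rps3 with -2.33 in Col-0. The rbcL polysomal libraries of dcp5-1 T15 held only 3.01, 7.98 and 6.92 fragment equivalents.

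A few genes were enriched with polysomes at T15. In Col-0, psbA had 1.51, 2.06 and 2.7 FPKM in polysomal RNA, against 0.531, 0.685 and 0.594 FPKM in total RNA, a change of 0.93 ± 0.15 (SE; adjusted p = 1.33e-05), and every polysomal library lay above every total library. In dcp5-1 at T15 it had 1.33, 1.74 and 2.45 FPKM in polysomal RNA, against 0.654, 0.922 and 0.735 FPKM in total RNA, a change of 0.67 ± 0.15 (SE; adjusted p = 4.91e-04). The gene clpP (ATCG00670), which codes for the catalytic subunit of the plastid Clp protease, was lower in polysomal RNA of Col-0 at T0, at -0.29, and higher at T15, at 0.45, but both signs turned, to 0.21 and -0.16, when FPKM was rescaled to the nuclear sum. In dcp5-1 it was higher at 0.42 at T0 and 0.42 at T15. The short transcripts psbM (ATCG00220, a small photosystem II subunit) and rpl32 (ATCG01020, a large-subunit ribosomal protein) were also higher in these 3 groups, by 1.62 and 1.90 in Col-0 T15, but rest on medians of 10.6 and 8.07 fragment equivalents.

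**Figure D4:**
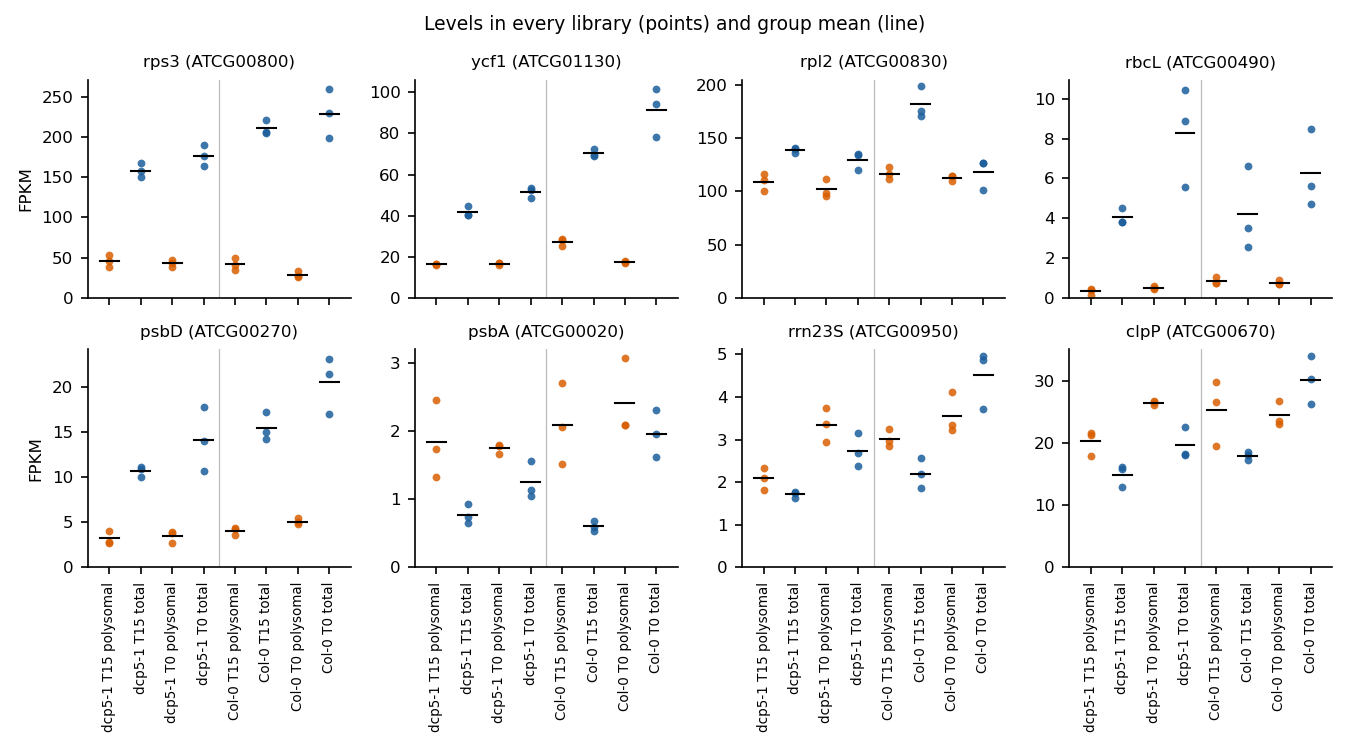
FPKM in each library (points; polysomal orange, total blue) and group mean (line) of 8 chloroplast-encoded genes in the 8 groups. Polysomal values of rps3, ycf1, rbcL and psbD lay far below total values in every genotype and time, whereas those of psbA at T15 lay above them.

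The tested genes with the highest mean level of each class are given here in all 24 libraries, leaving out transcripts under 300 nt in the photosystem, cytochrome and ribosomal protein classes, first the reaction centre genes of the photosystems. In dcp5-1, psbD had 2.73, 2.84 and 4.04 FPKM in T15 polysomal and 10.1, 10.9 and 11.1 in T15 total RNA, and 3.76, 2.7 and 3.92 in T0 polysomal and 14, 10.7 and 17.7 in T0 total RNA. In Col-0, psbD had 4.22, 4.37 and 3.62 FPKM in T15 polysomal and 17.2, 15 and 14.2 in T15 total RNA, and 4.75, 5.47 and 4.99 in T0 polysomal and 21.4, 23.1 and 17 in T0 total RNA. For psbD every polysomal library lay below every total library of the same genotype and time. In dcp5-1, psbC had 1.13, 1.46 and 1.96 FPKM in T15 polysomal and 4.38, 3.33 and 3.6 in T15 total RNA, and 1.4, 1.08 and 1.42 in T0 polysomal and 4.93, 5.42 and 6.23 in T0 total RNA. In Col-0, psbC had 1.97, 1.59 and 2.49 FPKM in T15 polysomal and 4.58, 4.3 and 3.6 in T15 total RNA, and 2.45, 1.71 and 2.34 in T0 polysomal and 6.14, 6.91 and 5.72 in T0 total RNA. For psbC every polysomal library lay below every total library of the same genotype and time. In dcp5-1, psbA had 1.33, 1.74 and 2.45 FPKM in T15 polysomal and 0.654, 0.922 and 0.735 in T15 total RNA, and 1.66, 1.8 and 1.78 in T0 polysomal and 1.04, 1.14 and 1.56 in T0 total RNA. In Col-0, psbA had 1.51, 2.06 and 2.7 FPKM in T15 polysomal and 0.531, 0.685 and 0.594 in T15 total RNA, and 2.08, 3.07 and 2.08 in T0 polysomal and 1.61, 2.31 and 1.95 in T0 total RNA. For psbA the polysomal libraries lay above the total libraries in dcp5-1 T15, dcp5-1 T0 and Col-0 T15, and the fractions overlapped in Col-0 T0. In dcp5-1, psaA had 0.188, 0.314 and 0.284 FPKM in T15 polysomal and 0.896, 0.906 and 1.02 in T15 total RNA, and 0.24, 0.179 and 0.342 in T0 polysomal and 1.54, 0.921 and 1.73 in T0 total RNA. In Col-0, psaA had 0.19, 0.165 and 0.57 FPKM in T15 polysomal and 1.39, 0.853 and 0.505 in T15 total RNA, and 0.429, 0.365 and 0.661 in T0 polysomal and 1.6, 1.24 and 1.67 in T0 total RNA. For psaA the polysomal libraries lay below the total libraries in dcp5-1 T15, dcp5-1 T0 and Col-0 T0, and the fractions overlapped in Col-0 T15. In dcp5-1, psaB had 0.129, 0.225 and 0.162 FPKM in T15 polysomal and 0.81, 0.955 and 0.691 in T15 total RNA, and 0.185, 0.214 and 0.292 in T0 polysomal and 1.34, 0.749 and 1.74 in T0 total RNA. In Col-0, psaB had 0.227, 0.271 and 0.516 FPKM in T15 polysomal and 0.85, 0.592 and 0.545 in T15 total RNA, and 0.339, 0.408 and 0.339 in T0 polysomal and 1.31, 1.52 and 1.1 in T0 total RNA. For psaB every polysomal library lay below every total library of the same genotype and time.

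The electron transport and ATP synthase genes were led by petA, ndhJ, ndhK, ndhC, atpE and atpB. In dcp5-1, petA had 0.713, 0.541 and 0.453 FPKM in T15 polysomal and 1.34, 0.75 and 0.837 in T15 total RNA, and 0.172, 0.171 and 0.732 in T0 polysomal and 1.11, 1.15 and 1.77 in T0 total RNA. In Col-0, petA had 0.365, 1.03 and 1.06 FPKM in T15 polysomal and 1.67, 1.49 and 1.88 in T15 total RNA, and 0.572, 0.663 and 0.762 in T0 polysomal and 1.76, 2.63 and 2.23 in T0 total RNA. For petA every polysomal library lay below every total library of the same genotype and time. In dcp5-1, ndhJ had 31.4, 27.1 and 32.9 FPKM in T15 polysomal and 43.1, 38.3 and 38 in T15 total RNA, and 27.9, 28.9 and 27.2 in T0 polysomal and 50.9, 33.8 and 46.2 in T0 total RNA. In Col-0, ndhJ had 39.6, 40.7 and 40.3 FPKM in T15 polysomal and 48.1, 56.4 and 63.6 in T15 total RNA, and 29.4, 39.7 and 26.6 in T0 polysomal and 50.6, 66 and 58.2 in T0 total RNA. For ndhJ every polysomal library lay below every total library of the same genotype and time. In dcp5-1, ndhK had 18.5, 19.9 and 23 FPKM in T15 polysomal and 34, 33.7 and 32.4 in T15 total RNA, and 14.5, 17.5 and 19.7 in T0 polysomal and 33.9, 34.2 and 36.9 in T0 total RNA. In Col-0, ndhK had 21.8, 22 and 27.8 FPKM in T15 polysomal and 54.5, 44.9 and 51.6 in T15 total RNA, and 22.6, 26.1 and 23.8 in T0 polysomal and 52.4, 66 and 51.5 in T0 total RNA. For ndhK every polysomal library lay below every total library of the same genotype and time. In dcp5-1, ndhC had 6.98, 10.2 and 5.08 FPKM in T15 polysomal and 11.7, 11 and 11.8 in T15 total RNA, and 9.5, 10 and 3.77 in T0 polysomal and 18.8, 10.3 and 9.46 in T0 total RNA. In Col-0, ndhC had 9.07, 7.95 and 14.2 FPKM in T15 polysomal and 25, 20.4 and 22.9 in T15 total RNA, and 16, 14.2 and 15 in T0 polysomal and 22.3, 23.4 and 23.5 in T0 total RNA. For ndhC the polysomal libraries lay below the total libraries in dcp5-1 T15, Col-0 T15 and Col-0 T0, and the fractions overlapped in dcp5-1 T0. In dcp5-1, atpE had 36.1, 38.4 and 45.4 FPKM in T15 polysomal and 56.1, 53.7 and 58.9 in T15 total RNA, and 39.9, 38.8 and 49 in T0 polysomal and 84.8, 69.9 and 77.3 in T0 total RNA. In Col-0, atpE had 38.5, 32.4 and 44.3 FPKM in T15 polysomal and 81.7, 63.2 and 80.4 in T15 total RNA, and 53.5, 64.2 and 51.6 in T0 polysomal and 88.2, 133 and 82.3 in T0 total RNA. For atpE every polysomal library lay below every total library of the same genotype and time. In dcp5-1, atpB had 16.8, 19.3 and 18.1 FPKM in T15 polysomal and 21.4, 20.4 and 19.6 in T15 total RNA, and 16.3, 17.4 and 17.4 in T0 polysomal and 25.3, 20.9 and 26.2 in T0 total RNA. In Col-0, atpB had 21.7, 20.2 and 23 FPKM in T15 polysomal and 26.7, 25.6 and 24 in T15 total RNA, and 20.6, 21.9 and 19.4 in T0 polysomal and 28.1, 36.8 and 25.4 in T0 total RNA. For atpB every polysomal library lay below every total library of the same genotype and time.

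The rule also takes in petD, atpH and trnH, which rest on few fragments and are not printed by library.

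Carbon fixation and the plastid's own gene expression were represented by rbcL, rpoA, rps3, rpl2, ycf1 and the ribosomal RNA genes. In dcp5-1, rbcL had 0.159, 0.426 and 0.374 FPKM in T15 polysomal and 3.83, 4.53 and 3.82 in T15 total RNA, and 0.509, 0.456 and 0.579 in T0 polysomal and 8.87, 5.57 and 10.4 in T0 total RNA. In Col-0, rbcL had 0.753, 0.727 and 1.02 FPKM in T15 polysomal and 6.64, 3.49 and 2.56 in T15 total RNA, and 0.674, 0.674 and 0.899 in T0 polysomal and 5.6, 4.71 and 8.5 in T0 total RNA. For rbcL every polysomal library lay below every total library of the same genotype and time. In dcp5-1, rpoA had 13, 13.6 and 14.6 FPKM in T15 polysomal and 19.5, 20.7 and 17.4 in T15 total RNA, and 11.6, 12.1 and 12.8 in T0 polysomal and 22.2, 18.7 and 20.7 in T0 total RNA. In Col-0, rpoA had 18.9, 20.2 and 19.6 FPKM in T15 polysomal and 26.5, 26.4 and 30.9 in T15 total RNA, and 12.5, 13.6 and 15.9 in T0 polysomal and 23.7, 29.7 and 33.7 in T0 total RNA. For rpoA every polysomal library lay below every total library of the same genotype and time. In dcp5-1, rps3 had 38.2, 53.1 and 45.9 FPKM in T15 polysomal and 158, 168 and 149.9 in T15 total RNA, and 44, 38.5 and 47.5 in T0 polysomal and 189.6, 164 and 176 in T0 total RNA. In Col-0, rps3 had 49.8, 34.6 and 41.1 FPKM in T15 polysomal and 207, 206 and 222 in T15 total RNA, and 33.5, 27 and 25.6 in T0 polysomal and 198, 259 and 230.3 in T0 total RNA. For rps3 every polysomal library lay below every total library of the same genotype and time. The gene rps19, which is shorter than 300 nt and is added after its values were seen, had 95.5, 151 and 142 FPKM in T15 polysomal and 256, 254 and 229 in T15 total RNA of dcp5-1, and 128, 108 and 106 in T0 polysomal and 299, 218 and 255 in T0 total RNA. Its Col-0 values were 118, 106 and 124 FPKM in T15 polysomal and 360, 364 and 332 in T15 total RNA, and 112, 101 and 90.4 in T0 polysomal and 291, 370.5 and 379 in T0 total RNA. Its polysomal libraries lay below the total libraries in both genotypes and at both times. In dcp5-1, rpl2 (ATCG01310) had 104, 112 and 112 FPKM in T15 polysomal and 141, 147 and 130.5 in T15 total RNA, and 100, 105 and 102 in T0 polysomal and 139.6, 121.4 and 137 in T0 total RNA. In Col-0, rpl2 (ATCG01310) had 125, 109.7 and 122 FPKM in T15 polysomal and 184, 173 and 195 in T15 total RNA, and 107, 112 and 119.9 in T0 polysomal and 101, 136 and 132 in T0 total RNA. For rpl2 (ATCG01310) the polysomal libraries lay below the total libraries in dcp5-1 T15, dcp5-1 T0 and Col-0 T15, and the fractions overlapped in Col-0 T0. In dcp5-1, rpl2 (ATCG00830) had 99.9, 116 and 111 FPKM in T15 polysomal and 139.7, 140.2 and 136 in T15 total RNA, and 95.2, 112 and 98.4 in T0 polysomal and 135, 119.7 and 134 in T0 total RNA. In Col-0, rpl2 (ATCG00830) had 123, 111 and 116 FPKM in T15 polysomal and 175, 170.4 and 199 in T15 total RNA, and 109.7, 114 and 114 in T0 polysomal and 102, 127 and 126 in T0 total RNA. For rpl2 (ATCG00830) the polysomal libraries lay below the total libraries in dcp5-1 T15, dcp5-1 T0 and Col-0 T15, and the fractions overlapped in Col-0 T0. In dcp5-1, ycf1 had 15.8, 16.7 and 16.6 FPKM in T15 polysomal and 40.4, 44.5 and 40.4 in T15 total RNA, and 15.9, 17 and 16.9 in T0 polysomal and 53.6, 48.7 and 52.7 in T0 total RNA. In Col-0, ycf1 had 28.4, 25 and 28.1 FPKM in T15 polysomal and 72.5, 69.5 and 69.2 in T15 total RNA, and 16.7, 17.7 and 18 in T0 polysomal and 78.1, 102 and 94.4 in T0 total RNA. For ycf1 every polysomal library lay below every total library of the same genotype and time.

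Among the ribosomal RNA rows, which are structural parts of the ribosome and not messages, both copies of each gene are given. In dcp5-1, rrn16S (ATCG00920) had 0.66, 1.12 and 1.02 FPKM in T15 polysomal and 0.554, 0.344 and 0.698 in T15 total RNA, and 1.37, 0.825 and 0.971 in T0 polysomal and 1.08, 0.831 and 0.796 in T0 total RNA. In Col-0, rrn16S (ATCG00920) had 0.618, 1.12 and 1.91 FPKM in T15 polysomal and 0.649, 0.401 and 0.516 in T15 total RNA, and 1.4, 1.24 and 1.56 in T0 polysomal and 0.863, 1.06 and 1.58 in T0 total RNA. For rrn16S (ATCG00920) the fractions overlapped in dcp5-1 T15, dcp5-1 T0, Col-0 T15 and Col-0 T0. In dcp5-1, rrn16S (ATCG01210) had 1.22, 0.511 and 1.49 FPKM in T15 polysomal and 0.597, 0.301 and 0.523 in T15 total RNA, and 0.976, 1.31 and 1.25 in T0 polysomal and 0.859, 0.7 and 0.796 in T0 total RNA. In Col-0, rrn16S (ATCG01210) had 0.927, 0.857 and 1.2 FPKM in T15 polysomal and 0.822, 0.312 and 0.258 in T15 total RNA, and 1.72, 1.34 and 1.78 in T0 polysomal and 0.815, 0.78 and 1.17 in T0 total RNA. For rrn16S (ATCG01210) the polysomal libraries lay above the total libraries in dcp5-1 T0, Col-0 T15 and Col-0 T0, and the fractions overlapped in dcp5-1 T15. In dcp5-1, rrn23S (ATCG00950) had 1.81, 2.11 and 2.34 FPKM in T15 polysomal and 1.63, 1.75 and 1.77 in T15 total RNA, and 3.35, 2.94 and 3.74 in T0 polysomal and 2.38, 2.69 and 3.15 in T0 total RNA. In Col-0, rrn23S (ATCG00950) had 2.84, 3.26 and 2.96 FPKM in T15 polysomal and 2.57, 1.85 and 2.18 in T15 total RNA, and 3.35, 4.11 and 3.22 in T0 polysomal and 3.71, 4.88 and 4.95 in T0 total RNA. For rrn23S (ATCG00950) the polysomal libraries lay above the total libraries in dcp5-1 T15 and Col-0 T15, and the fractions overlapped in dcp5-1 T0 and Col-0 T0. In dcp5-1, rrn23S (ATCG01180) had 1.69, 2.38 and 1.75 FPKM in T15 polysomal and 1.61, 2.13 and 1.65 in T15 total RNA, and 2.6, 2.33 and 3.07 in T0 polysomal and 2.25, 2.46 and 2.4 in T0 total RNA. In Col-0, rrn23S (ATCG01180) had 3.04, 3.13 and 3.17 FPKM in T15 polysomal and 2.66, 1.98 and 1.87 in T15 total RNA, and 3.35, 3.08 and 3.74 in T0 polysomal and 3.39, 4.55 and 4.19 in T0 total RNA. For rrn23S (ATCG01180) the polysomal libraries lay above the total libraries in Col-0 T15, and the fractions overlapped in dcp5-1 T15, dcp5-1 T0 and Col-0 T0.

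The second comparison asked what 15 min of NaCl did to chloroplast transcripts. In Col-0 total RNA, 3 genes were higher and 20 lower at T15 than at T0, against 65.7% of all genes called, 33.2% higher and 32.4% lower. Only 34.8% of the chloroplast genes were called, and the 20 lower of 66 are no excess over the background share. The median log2 change was -0.28 over chloroplast genes and 0.01 over all genes. The lower genes included all 4 ribosomal RNA rows, 4 of 10 photosystem II genes, 3 of 4 photosystem I genes and 3 of 6 ATP synthase genes, but none of the 7 NDH genes. The subunit genes psaJ (ATCG00630) of photosystem I and atpH (ATCG00140) of the ATP synthase are among them with few fragments. The split depended on the scaling. With FPKM rescaled so that nuclear genes of at least 300 nt had the same sum, 19 were higher and 8 lower, and with all nuclear genes 9 were higher and 3 lower. These scalings also moved the median log2 change over all genes, to 0.37 and 0.62, so the counts follow a shift of all genes. Nuclear transcripts in the same comparison had medians of -0.47 from 300 to 600 nt, -0.35 from 600 to 1500 nt and 0.20 from 1500 nt, and the part of length was not tested.

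In Col-0 total RNA psbA fell, and had 0.531, 0.685 and 0.594 FPKM at T15, against 1.61, 2.31 and 1.95 FPKM at T0, a log2 change of -0.88 ± 0.15 (SE; adjusted p = 2.30e-05). The row rrn23S (ATCG00950) had 2.57, 1.85 and 2.18 FPKM at T15, against 3.71, 4.88 and 4.95 FPKM at T0, a change of -0.78 ± 0.11 (SE; adjusted p = 2.10e-06). For both genes every T15 library lay below every T0 library. The change of clpP was -0.71, that of rbcL -0.52, that of psbC -0.49, that of psaA -0.41, that of atpE -0.40, that of psbD -0.38 and that of ycf1 -0.36, and these 7 turned above 0, to values from 0.02 to 0.40, with rescaling to the nuclear sum. With nuclear genes of at least 300 nt, psbD, atpE and ycf1 turned to 0.05, 0.05 and 0.08. In the opposite direction, rpl2 (ATCG00830) had 175, 170.4 and 199 FPKM at T15, against 102, 127 and 126 FPKM at T0, a change of 0.62 ± 0.08 (SE; adjusted p = 5.94e-07), and its other copy changed by 0.59. The short rpl23 copy ATCG01300, which codes for a large-subunit protein, changed by 1.20, but its twin ATCG00840, at 0.49 ± 0.50, did not pass the test. The reads of these copies cannot be told apart, so the rpl23 call is uncertain.

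In Col-0 polysomal RNA 8 genes were higher and 2 lower at T15, against 32.7% of all genes called, 15.6% higher and 17.1% lower. The 8 higher of 66 tested are no excess over the background share. The medians were 0.00 over chloroplast genes and 0.00 over all genes. Of the 8, 6 lay between rpl23 and rpoA. The largest change among the 8 was that of rpl14, which had 44.3, 40.2 and 50.6 FPKM at T15, against 25.1, 22.8 and 27.8 FPKM at T0, a change of 0.81 ± 0.13 (SE; adjusted p = 5.46e-05). The polysomal level of ycf1 was 28.4, 25 and 28.1 FPKM at T15, against 16.7, 17.7 and 18 FPKM at T0, a change of 0.61 ± 0.07 (SE; adjusted p = 8.90e-07). The T15 libraries of both genes lay above all T0 libraries. The changes of rpl22, rps3, rpl16 and rpoA were 0.59, 0.52, 0.48 and 0.46. The lower ones were atpE, at -0.55, and psbZ (ATCG00300), a small photosystem II subunit that was listed from at most 4.99 fragment equivalents. With rescaling to the sum of all nuclear genes no chloroplast gene was called, whereas with nuclear genes of at least 300 nt 9 were higher and 2 lower.

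In dcp5-1 total RNA no gene was higher and 14 were lower at T15 (all genes: 55.7% called, 29% higher and 26.8% lower), with medians of -0.24 over chloroplast genes and 0.01 over all genes. The 14 are 21.2% of the chloroplast genes tested, which is no excess over the background share. Here rbcL had 3.83, 4.53 and 3.82 FPKM at T15, against 8.87, 5.57 and 10.4 FPKM at T0, a change of -0.84 ± 0.22 (SE; adjusted p = 0.00296). The T15 libraries lay below all T0 libraries. The change was -0.45 for psbC, -0.75 for atpF (ATCG00130, a stator subunit of the ATP synthase), -0.58 for cemA (ATCG00530, an envelope protein) and -0.30 for ycf1, which turned to 0.04 under rescaling to the nuclear sum. With rescaling to the sum of all nuclear genes 1 gene was called, and with nuclear genes of at least 300 nt 2 were higher and 7 lower. The count was 7 without dcp5-1 T0 total column 2 and 9 without dcp5-1 T15 total column 0. In dcp5-1 polysomal RNA no gene was higher and 3 were lower (all genes: 32.8% called, 17.2% higher and 15.5% lower): rrn23S, at -0.49 and -0.32, and clpP, at -0.37. Without dcp5-1 T0 polysomal column 0 the count was 1, and with rescaling to the sum of all nuclear genes it was 0.

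The difference between polysomal and total RNA on the log2 scale is called polysome association here, and its change at T15 follows from both responses. In Col-0, association was higher at T15 for 13 genes and lower for 3, against 44.3% of all genes called, 22.8% higher and 21.5% lower, with medians of 0.29 over chloroplast genes and -0.00 over all genes. It was higher for ycf1, at 0.97 ± 0.10 (SE; adjusted p = 9.97e-08), rpl14, at 0.90, clpP, at 0.74, psbA, at 0.73, rpl22, at 0.66, rps3, at 0.63, rpl16, at 0.62, and rrn23S, at 0.60 and 0.58. It was lower for both copies of rpl2, at -0.57 and -0.51. Under rescaling to the nuclear sum, ycf1, rpl14, clpP, rps3, rpl22, rpoA and both rrn23S rows turned below 0, and 6 genes were called, all lower, whereas nuclear genes of at least 300 nt gave 5 higher and 5 lower. Nuclear transcripts had median association changes of 0.44 from 300 to 600 nt, 0.29 from 600 to 1500 nt and -0.16 from 1500 nt, and their part was not tested. In dcp5-1, association was higher for 5 genes and lower for none (all genes: 26.3% called, 12.3% higher and 14% lower): atpF at 1.20, petD (ATCG00730, a cytochrome b6f subunit) at 0.91 from few fragments, ndhB (ATCG00890, an NDH subunit) at 0.61, psbC at 0.57 and ycf1 at 0.28. The other ndhB copy, ATCG01250, at 0.22 ± 0.25, did not pass the test. Leaving out single libraries brought that count to between 1 and 6, and rescaling to the sum of all nuclear genes to 0.

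The third comparison asked how dcp5-1 seedlings differed from Col-0. In total RNA at T0, 1 chloroplast gene was higher and 25 lower in dcp5-1, against 48.1% of all genes called, 19.5% higher and 28.6% lower. The median log2 change was -0.39 over chloroplast genes and -0.05 over all genes. At T15 none was higher and 25 were lower (all genes: 50% called, 24% higher and 26.1% lower), with medians of -0.39 and -0.02. Nuclear transcripts from 300 to 600 nt had medians of -0.10 at T0 and 0.12 at T15, those from 600 to 1500 nt -0.03 and 0.12, and those from 1500 nt -0.06 and -0.10. Under the scaling on nuclear genes of at least 300 nt, 4 were higher and 14 lower at T0, and none higher and 28 lower at T15. Under rescaling to the sum of all nuclear genes 1 was higher and none lower at T0, and 4 were lower at T15.

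The lower genes included ycf1 and several ribosomal protein genes. In dcp5-1 total RNA ycf1 had 53.6, 48.7 and 52.7 FPKM, against 78.1, 102 and 94.4 FPKM in Col-0 at T0, a change of -0.80 ± 0.07 (SE; adjusted p = 6.34e-09). At T15 it had 40.4, 44.5 and 40.4 FPKM in dcp5-1, against 72.5, 69.5 and 69.2 FPKM in Col-0, a change of -0.74 ± 0.07 (SE; adjusted p = 2.49e-08). At both times the genotypes were well separated. The rps12 row ATCG00905, which codes for a small-subunit protein, had 87.6, 88.5 and 80.3 FPKM in dcp5-1 T15 total RNA, against 165, 209 and 186 FPKM in Col-0, a change of -1.11 ± 0.14 (SE; adjusted p = 2.82e-06), and its T0 change was -0.80. The rps7 rows lie beside rps12 in the inverted repeat. Their changes were -0.71 and -0.95 at T0 and -0.87 and -1.05 at T15.

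Of the 11 genes of the neighbourhood from rpl23 to rpoA, 7 were lower in dcp5-1 total RNA at T0 and 9 at T15 (all genes: 28.6% and 26.1% lower). The changes were, for example, -0.65 and -0.58 for rpl14 and -0.47 and -0.52 for rpoA. None of these neighbours was higher. The 1 chloroplast gene higher at T0 was the rpl23 copy ATCG01300, which lies outside this neighbourhood, at 0.84, with the uncertainty given above. Among photosynthesis genes, ndhK had 33.9, 34.2 and 36.9 FPKM in dcp5-1 T0 total RNA, against 52.4, 66 and 51.5 FPKM in Col-0, a change of -0.67 ± 0.11 (SE; adjusted p = 4.13e-05). Its genotypes did not overlap. The other called genes of photosynthetic complexes were psbM, at -1.46 from few fragments, ndhJ (ATCG00420) at -0.42 and ndhC (ATCG00440) at -0.86, psbD at -0.52, psbA at -0.40, petA at -0.46 and atpB at -0.30, which turned to 0.04 with rescaling to the nuclear sum. For rbcL, with 8.87, 5.57 and 10.4 FPKM in dcp5-1, against 5.6, 4.71 and 8.5 FPKM in Col-0, the genotypes overlapped and the change of 0.35 ± 0.22 did not pass the test. Leaving out dcp5-1 T0 total column 1 or Col-0 T0 total column 1 left 16 genes called at T0.

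In polysomal RNA fewer genes differed. At T0, 2 were higher and 12 lower in dcp5-1 (all genes: 45.9% called, 21.9% higher and 24% lower), with medians of -0.18 over chloroplast genes and -0.01 over all genes. Both higher genes were neighbours: rpl22 had 36.6, 30.6 and 37.4 FPKM in dcp5-1, against 23.5, 18.7 and 16.4 FPKM in Col-0, a change of 0.81 ± 0.15 (SE; adjusted p = 2.22e-04), and rps3 had 44, 38.5 and 47.5 FPKM, against 33.5, 27 and 25.6 FPKM in Col-0, a change of 0.58 ± 0.13 (SE; adjusted p = 0.00126). Every dcp5-1 library of these genes lay above every Col-0 library. The lower genes included ndhC at -0.97, psbC at -0.46, psbD at -0.46, atpE at -0.40 and atpB at -0.26, which turned to 0.04 with rescaling to the nuclear sum. The count was 5 without dcp5-1 T0 polysomal column 1, 7 without Col-0 T0 polysomal column 0 and 9 without Col-0 T0 polysomal column 1. It was 4 higher and 4 lower with scaling on nuclear genes of at least 300 nt, and 1 and 1 with the sum of all nuclear genes.

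At T15, none was higher and 10 were lower in dcp5-1 polysomal RNA (all genes: 44.7% called, 22.3% higher and 22.4% lower), with medians of -0.17 and -0.01. The polysomal level of ycf1 was 15.8, 16.7 and 16.6 FPKM in dcp5-1, against 28.4, 25 and 28.1 FPKM in Col-0, a change of -0.70 ± 0.07 (SE; adjusted p = 6.49e-08). That of rpl14 was 29.9, 29.7 and 25.9 FPKM in dcp5-1, against 44.3, 40.2 and 50.6 FPKM in Col-0, a change of -0.64 ± 0.13 (SE; adjusted p = 3.99e-04). Neither gene overlapped between the genotypes. The other called genes were rps12 (ATCG00905), both rps7 rows, both rrn23S rows, rpoA, ndhJ and atpB, from -0.65 for rps12 to -0.25 for atpB. The repeat copy of this rps12 row, ATCG01230, at -0.24 ± 0.26, did not pass the test, so the rps12 call is uncertain. With rescaling to the sum of all nuclear genes, rpl14, rps12, rps7 (ATCG01240), rrn23S (ATCG00950), rpoA, ndhJ and atpB turned above 0, and 3 genes were called, all higher. With nuclear genes of at least 300 nt 1 was higher and 7 lower.

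**Figure D5:**
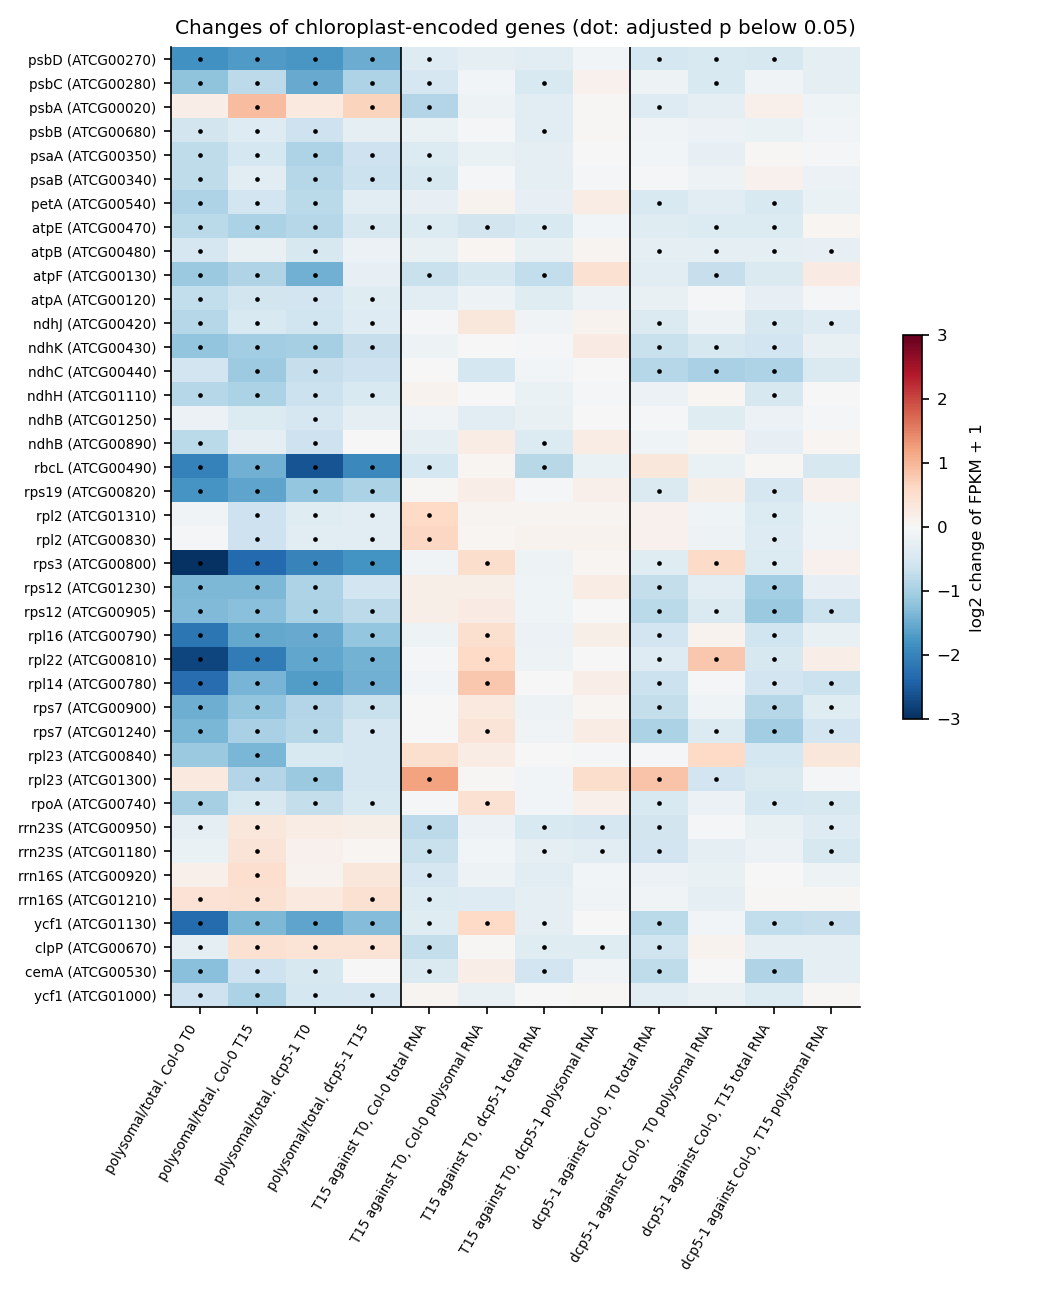
Log2 changes of 40 chloroplast-encoded genes (rows, by function) in 12 comparisons (columns: polysomal against total RNA, T15 against T0, dcp5-1 against Col-0), from -3 in blue to 3 in red, with a dot where the adjusted p is below 0.05. The polysomal columns were blue for most genes, deepest for rps3 at -2.96 in Col-0 T0, and the dcp5-1 total RNA columns were mostly pale blue.

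Polysome association in dcp5-1 against Col-0 combines these changes. At T0 it was higher for 8 genes and lower for 2, against 10.9% of all genes called, 7.73% higher and 3.14% lower, with medians of 0.21 over chloroplast genes and 0.04 over all genes. The higher genes included rpl22 at 1.20 ± 0.21 (SE; adjusted p = 0.0014), rps3 at 0.95 ± 0.19 (SE; adjusted p = 0.00272), ycf1 at 0.73 ± 0.10 (SE; adjusted p = 7.58e-05), clpP at 0.71, rpl16 at 0.66, rpl14 at 0.62 and rrn23S (ATCG00950) at 0.49. The other rrn23S copy, ATCG01180, at 0.315 ± 0.16, did not pass the test. Of the 8 higher genes, 5 lie in the neighbourhood from rpl23 to rpoA. For ycf1 total RNA was lower in dcp5-1 at T0, as given above, while polysomal RNA, with 15.9, 17 and 16.9 FPKM in dcp5-1, against 16.7, 17.7 and 18 FPKM in Col-0, changed by -0.07 ± 0.07, which did not pass the test. The lower genes were petD, at -0.81, from few fragments, and rpl23 (ATCG01300), at -1.41. The count was 6 when any of 3 libraries was left out: dcp5-1 T0 total column 1, Col-0 T0 total column 1 or Col-0 T0 polysomal column 0. With rescaling to the sum of all nuclear genes none was called. At T15, association was higher for 2 genes and lower for none (all genes: 12.8% called, 7.48% higher and 5.31% lower): rpl22 at 0.69 ± 0.21 (SE; adjusted p = 0.0419) and rps19 at 0.64 ± 0.21 (SE; adjusted p = 0.0478). That count lay between 0 and 5 when single libraries were left out, and 13 genes passed an unadjusted p of 0.05.

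The last comparison tested whether the response to NaCl itself differed between the genotypes, as the T15 change in dcp5-1 minus that in Col-0. In total RNA none was higher and 3 were lower (all genes: 25.2% called, 16.9% higher and 8.34% lower): rpl2 at -0.52 ± 0.11 (SE; adjusted p = 0.00185) and -0.52 ± 0.12 (SE; adjusted p = 0.00317), and rpl23 (ATCG01300) at -1.27 ± 0.32. The rpl2 response was 0.10 ± 0.08 in dcp5-1, which did not pass the test, against 0.62 ± 0.08 in Col-0. In polysomal RNA none was higher and 2 were lower (all genes: 10.9% called, 6.49% higher and 4.45% lower): ycf1 at -0.63 ± 0.10 (SE; adjusted p = 3.08e-04) and rpl14 at -0.60 ± 0.18 (SE; adjusted p = 0.0367). The polysomal level of ycf1 changed by -0.02 ± 0.07 at T15 in dcp5-1, which did not pass the test, against 0.61 ± 0.07 in Col-0. In association, 2 were higher and 1 lower (all genes: 6.25% called, 1.95% higher and 4.3% lower): rpl23 (ATCG01300) at 1.79 ± 0.46, rpl2 (ATCG00830) at 0.57 ± 0.16 and ycf1 at -0.69 ± 0.14 (SE; adjusted p = 0.00689), which turned to 0.10 with rescaling to the nuclear sum. With rescaling to the sum of all nuclear genes no chloroplast gene was called in any of the 3 measures, and with nuclear genes of at least 300 nt the counts were 5 in total RNA, 4 in polysomal RNA and 4 in association. None of the photosystem, ATP synthase, NDH or polymerase genes passed this test in any of the 3 measures. Without Col-0 T0 total column 0 the counts were 6 in total RNA and 7 in association, and leaving out single libraries gave 1 to 3 in polysomal RNA and 1 to 7 in association. The median standard error over all genes was 0.12 in each fraction and 0.17 in association, which limits the differences that could be detected.

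Nuclear genes that serve chloroplast gene expression were counted in the same fit, from lists of 21 genes for plastid transcription, 20 for RNA processing and stability, 7 translation factors and 26 ribosomal proteins. The lists were chosen with earlier results of these data known. In Col-0 at T0, where 35.3% of all genes were higher and 36% lower in polysomal RNA, 19 genes of the processing list were higher and none lower, with a median of 0.71, and all 7 translation factors were higher, with a median of 0.58. Examples were CSP41B, which codes for a stem-loop RNA binding protein, at 1.73 ± 0.05, and HCF173, needed for translation of the psbA message, at 1.13 ± 0.04. Of the transcription list 13 were higher and 3 lower, and of the ribosomal proteins 10 were higher and 13 lower. In dcp5-1 against Col-0 total RNA at T0, 22 of the 26 nuclear genes for plastid ribosomal proteins were lower and none higher, with a median of -0.42 (all genes: 19.5% higher and 28.6% lower). The change of PRPL1 was -0.57 ± 0.04 and that of PRPS1 -0.54 ± 0.05. At T15 the list had 1 higher and 11 lower in total RNA (all genes: 24% higher and 26.1% lower). In polysomal RNA 22 were lower at T0 (all genes: 24% lower) and 17 at T15 (all genes: 22.4% lower), with none higher. The transcription list had 8 higher and 2 lower, the processing list 5 higher and 9 lower, and the translation factors 1 higher and 3 lower in the same T0 total comparison.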

How the data were processed

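Polysomal and total RNA of 24 samples in 8 groups were measured by mRNA-seq, per the labels' protocols. The authors deposited a table of FPKM values per gene. Bowtie and the TAIR10 genome are named in the submitters' processing notes without versions or settings, and how reads were assigned to genes that overlap or are repeated is not given in the sources used here. Column names were read as genotype, time and fraction, and the column numbers 0 to 2 could not be tied to replicate numbers. The table gives no raw counts, so fragment equivalents (FPKM multiplied by the implied library size and by an effective length) were estimated. The steps of low values of 1247 long nuclear genes were used, and for long transcripts the effective length was the length minus 266.4 nt. Short transcripts had an effective length above that difference, such as 51.49 nt for rps19, of 279 nt. Fragment equivalents give an approximate depth, and no interval was computed from them.

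Genes with at least 1 FPKM in at least 3 libraries (20964) were fitted on log2(FPKM + 1) with limma 3.58.1 in R 4.3.3 (8 group means, trended robust empirical Bayes), with Benjamini-Hochberg adjustment over all of them and a threshold of 0.05. Fold changes on this scale understate changes of low genes. The fit was tested on simulated data. Named by rule were the genes with the highest mean of each class (transcripts under 300 nt left out in the photosystem, cytochrome and ribosomal classes), printed in every library where they rest on at least 10 fragment equivalents, and up to 5 called genes per comparison with the largest changes at a mean of at least 10 FPKM, some of them printed by their change alone. Genes outside the rule were named after their values were seen. Some genes are counted but not reported by name here. The members and lists were chosen with earlier results of these data known. Most gene names come from the locus numbering and not from the deposited table or the reference. Positions and sequences are from the RefSeq plastid sequence of TAIR10.1. Alternatives were another pseudocount, no filter, other scalings, a replicate block, a fit of only the groups compared, and each library left out.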

Additional observations from a re-analysis of the deposited data

Results flagged for a closer look

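The changes below differed between fractions or genotypes by a test of the difference itself (limma, adjusted p below 0.05 over all genes tested). None was weighed for a cause. Between polysomal and total RNA the T15 change in Col-0 differed by 0.730 for psbA, 1.401 for psbM, 0.740 for clpP, 0.508 for rpoA, 0.902 for rpl14, 0.632 for rps3, 0.656 for rpl22, 1.889 for rpl32 and 0.972 for ycf1. It differed by 0.602 and 0.579 for the rrn23S rows ATCG00950 and ATCG01180, by -0.571 and -0.514 for the rpl2 copies ATCG00830 and ATCG01310, and by -1.175 for the rpl23 copy ATCG01300. In dcp5-1 the difference was 0.574 for psbC, 0.913 for petD and 0.282 for ycf1.

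Between polysomal and total RNA the dcp5-1 change at T0 differed by 0.709 for clpP, -0.809 for petD, 0.616 for rpl14, 0.953 for rps3, 1.201 for rpl22, 0.487 for rrn23S (ATCG00950), 0.733 for ycf1 and -1.414 for rpl23 (ATCG01300). At T15 it differed by 0.687 for rpl22 and 0.644 for rps19.

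The T15 response of dcp5-1 minus that of Col-0 was -0.522 and -0.519 for the rpl2 copies ATCG00830 and ATCG01310 and -1.272 for rpl23 (ATCG01300) in total RNA. In polysomal RNA it was -0.602 for rpl14 and -0.627 for ycf1. In association it was 0.570 for rpl2 (ATCG00830), -0.690 for ycf1 and 1.786 for rpl23 (ATCG01300). Values of psbM, rpl32, petD and rpl23 rest on few fragments, and those of rpl2, rpl23 and rrn23S on reads shared between repeat copies.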

How the results depend on the processing

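Counts here are of chloroplast genes called. With organelle genes left out of the total, so that nuclear FPKM had the same sum, the counts were 19 for polysomal against total RNA in Col-0 T0, 21 in dcp5-1 T0 and 18 in dcp5-1 T15. For T15 against T0 they were 12 and 0 in Col-0 total and polysomal RNA, and 1 and 0 in dcp5-1. For dcp5-1 against Col-0 they were 1 and 2 at T0 and 4 and 3 at T15 in total and polysomal RNA. For association they were 6 (NaCl, Col-0), 0 (NaCl, dcp5-1), 0 (genotype, T0) and 1 (genotype, T15), and 0, 0 and 0 for the 3 differences of responses. This scaling rests in part on short transcripts: 7.3% to 66.9% of the nuclear sum came from transcripts under 300 nt or without a length, and its factors ran from 0.676 to 2.101. Under it the median log2 change of all genes lay between -0.92 and 0.67, depending on the comparison, and 67 chloroplast genes were tested. Under it these changes turned sign. Polysomal against total RNA turned to 0.211 for clpP and 0.142 for rrn23S (ATCG00950) in Col-0 T0, to -0.158 for clpP and -0.124 and -0.071 for rrn23S in Col-0 T15, and to 0.147 and 0.127 for rpl2 in dcp5-1 T0. T15 against T0 in total RNA turned to 0.351 for psbD, 0.145 for psbC, 0.017 for psaA, 0.365 for atpE, 0.129 for rbcL, 0.029 for clpP and 0.402 for ycf1 in Col-0, and to 0.041 for ycf1 in dcp5-1. For atpB, dcp5-1 against Col-0 turned to 0.038 in T0 total and 0.045 in T0 polysomal RNA. In T15 polysomal RNA it turned to 0.295 for ndhJ, 0.423 for atpB, 0.182 for rpoA, 0.049 for rpl14, 0.050 for rps12, 0.114 for rrn23S and 0.079 for rps7. The association change at T15 in Col-0 turned to -0.369 for clpP, -0.599 for rpoA, -0.241 for rpl14, -0.514 for rps3, -0.485 for rpl22, -0.266 and -0.265 for rrn23S and -0.162 for ycf1, in dcp5-1 to -0.061 for ycf1, and the difference in association to 0.101 for ycf1. With nuclear genes of at least 300 nt, a scaling chosen after seeing the data, psbD, atpE and ycf1 turned to 0.050, 0.048 and 0.084 in Col-0 total RNA at T15. Its counts were 27 and 9 for T15 against T0 in total RNA of Col-0 and dcp5-1, 18 and 8 for genotype at T0 and 28 and 8 at T15, 10, 2, 7 and 9 for association, and 5, 4 and 4 for the differences. Under this scaling the median log2 change of all genes lay between -0.32 and 0.37, depending on the comparison. Without the filter, genotype gave 9 in T0 polysomal RNA and 0 in T15 association. The column numbers did not pair the libraries: deviations of same-numbered libraries had a median r of -0.03, and of others 0.00. With the replicate block, genotype gave 0 in T15 association. Fitting only the groups compared gave 4 there and 6 for the difference in total RNA. With libraries scaled by their median ratio over genes (median-of-ratios), 251 of 256 named changes stayed the same, 5 were weaker and 0 turned sign.

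When single libraries were left out, the counts for polysomal against total RNA ran from 33 to 41, 39 to 46, 41 to 46 and 27 to 37. Those for T15 against T0 ran from 17 to 25, 7 to 10, 7 to 17 and 1 to 4, those for genotype from 16 to 27, 5 to 14, 18 to 26 and 7 to 13, those for association from 13 to 18, 1 to 6, 6 to 11 and 0 to 5, and those for the differences from 3 to 6, 1 to 3 and 1 to 7. No named change turned sign in these. The causes of the other changes were not tested. Depth limits all genes with few fragment equivalents.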
